A study of Mus musculus with 6 samples.

Results

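Toll-like receptors, their co-receptor CD14 and the adaptor MyD88 were examined in sorted colonic macrophages (MΦs) that lack or keep IL10Rβ. The 10 genes were every row of the deposited gene table whose symbol was Tlr1, Tlr2, Tlr4, Tlr6, Tlr7, Tlr8, Tlr9, Tlr13, Cd14 or Myd88. They were 10 of the 14097 genes listed, and 10 of 10 were among the 11067 genes that reached 50 normalized counts in at least 1 library. RNA-seq was run on 6 libraries, 1 from Il10rb-/- and 1 from Il10rb+/- 129SvEv mice at each of 1, 3 and 12 weeks of age. The cells were untreated P3/P4 MΦs, sorted from the colonic lamina propria (LP) as CD45+, CD11b+, CD11cint, CD103-, CD64+, Ly6C- and MHCII+ cells. Every Il10rb+/- library came from mice with 1 copy of the gene deleted, so no library was wild type, and the deletion was in all tissues and not confined to MΦs. At 3 and 12 weeks a library was made from a single mouse, and at 1 week from several pooled mice. The paper used mice of both sexes and does not give the sex behind each library. There was thus 1 library per genotype and age, and a difference at a single age has no replicate check.

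Toll-like receptors are membrane proteins that bind microbial molecules and signal through adaptors to NF-kappaB and interferon regulatory factors. TLR2 acts at the cell surface as a partner of TLR1 or TLR6 and binds bacterial lipoproteins, and TLR4 binds lipopolysaccharide together with MD-2, while CD14 hands lipopolysaccharide and other ligands to them. TLR7, TLR8, TLR9 and TLR13 sit in endosomes and bind nucleic acids, TLR9 unmethylated CpG DNA and TLR13 bacterial ribosomal RNA. All of the receptors here use MyD88, and IL10 is known to restrain the cytokine genes that they switch on in gut MΦs.

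Promoter sequences are shown for Tlr2, the receptor with the most reads in 5 of the 6 libraries, and for Tlr8, Tlr9 and Tlr13, endosomal receptors that had fewer normalized counts in Il10rb-/- than in Il10rb+/- libraries at each age. They are RefSeq sequences of GRCm38.p6, limited to bases before the 5′ end of the gene in GENCODE, and capitals mark matches to 4 motifs searched on both strands. The motifs were GAGGAA for PU.1, GGGNNTTCC or GGANTTTCC for NF-kappaB, TTCNNNGAA for STAT factors and GAAANNGAA for interferon regulatory factors (ISRE).
Tlr2, chr3:83841768-83841858, minus strand: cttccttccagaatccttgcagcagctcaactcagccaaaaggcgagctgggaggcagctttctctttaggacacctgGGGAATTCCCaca
Tlr8, chrX:167264330-167264579, minus strand: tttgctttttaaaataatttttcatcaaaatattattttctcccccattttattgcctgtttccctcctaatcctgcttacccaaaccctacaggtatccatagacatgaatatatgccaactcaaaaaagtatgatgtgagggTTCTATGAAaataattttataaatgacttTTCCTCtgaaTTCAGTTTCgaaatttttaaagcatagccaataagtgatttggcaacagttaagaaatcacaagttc
Tlr9, chr9:106222348-106222597, plus strand: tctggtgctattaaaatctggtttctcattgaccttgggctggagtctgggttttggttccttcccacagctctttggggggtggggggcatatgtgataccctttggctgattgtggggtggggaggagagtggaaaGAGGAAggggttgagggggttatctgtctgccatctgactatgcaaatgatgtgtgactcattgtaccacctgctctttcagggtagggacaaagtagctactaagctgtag
Tlr13, chrX:106143025-106143203, plus strand: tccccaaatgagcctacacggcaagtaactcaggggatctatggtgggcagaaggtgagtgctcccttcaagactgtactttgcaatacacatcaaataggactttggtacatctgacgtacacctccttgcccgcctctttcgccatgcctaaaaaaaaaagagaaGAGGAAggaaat

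The capitals in Tlr2 are a palindrome that matches the NF-kappaB letters on both strands, while those in Tlr9 and Tlr13 are PU.1 letters. Tlr8 holds a STAT match, a PU.1 match and an ISRE match, in that order. Over the 9 windows of 250 bases that 7 of the 10 genes had, NF-kappaB letters were in 1 window, PU.1 letters in 4, STAT letters in 3 and ISRE letters in 3. In all 32851 promoter windows of that length, these letters were in 5.98%, 23.2%, 7.02% and 7.13%. The window of Myd88, 1 of the 2 windows of Tlr1 and 1 of the 2 windows of Tlr6 lay wholly inside the gene as annotated in GENCODE. These windows held STAT letters (Tlr1 and Myd88) and ISRE letters (Tlr6 and Myd88), so those matches do not lie upstream of the GENCODE gene. A match of letters is a description of the sequence and was not tested for binding.

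The targeted gene was low in each library labelled Il10rb-/-. Il10rb had 1221, 939 and 1107 normalized counts in Il10rb+/- P3/P4 MΦs at 1, 3 and 12 weeks, and 12.0, 24.6 and 27.4 in Il10rb-/- P3/P4 MΦs. A normalized count is the number of reads on a gene divided by the size factor of its library. Depth lay between 6700337 reads (3 weeks, Il10rb+/-) and 40754971 reads (12 weeks, Il10rb+/-) on the listed genes.

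The 12-week Il10rb-/- library stood apart from the others in markers of cell type. The summed normalized counts of 8 neutrophil markers lay between 1453 and 2167 in the other 5 libraries and reached 12282 in this one, where none of the 8 was at 0, while Camp had 0 reads in each of the others. All 6 that passed the filter were higher there than in the 12-week Il10rb+/- library. S100a8, a neutrophil calprotectin subunit, went from 12.8 normalized counts in the Il10rb+/- library of that age to 1673. Ly6g, which marks mature neutrophils, stayed low, with 0 reads in Il10rb+/- and 15.9 normalized counts in Il10rb-/- P3/P4 MΦs. Of 8 monocyte markers, none of them at 0 at this age, 6 were higher in Il10rb-/- than in Il10rb+/- P3/P4 MΦs and 5 of these by over 3-fold, with sums of 37073 and 28701. Of 12 resident macrophage markers, 7 were over 3-fold lower and the sums were 494490 and 550160. The general macrophage genes Csf1r (log2 ratio -0.01), Fcgr1, which encodes the CD64 of the gate (0.04), and Cd68 (-0.38) were nearly level, whereas Mrc1 (-4.30) and Cx3cr1 (-3.16) were not. Siglech, found in plasmacytoid dendritic cells and in some tissue MΦs, had 1055 normalized counts in Il10rb+/- and 0 reads in Il10rb-/- P3/P4 MΦs. The sums of its list of 6 markers, 1 of them at 0 in the Il10rb-/- library, were 3316 and 1126. Of the 4 that passed the filter, 2 were over 3-fold lower in Il10rb-/- P3/P4 MΦs and 1 was over 3-fold higher. The 7 B and plasma cell markers were all over 3-fold lower there, with sums of 1911 against 17670 normalized counts. Conventional dendritic cell markers (7 genes, none at 0) summed to 39875 normalized counts in this library, 10960 in the 12-week Il10rb+/- library and 1321 to 3405 in the younger ones, most of it from Ccr7, and Kit, the 1 mast cell marker in the table, had 2554 against 490 at 12 weeks. The plasmacytoid list was lower in Il10rb-/- P3/P4 MΦs at the younger ages too, with sums of 3908 against 7862 at 1 week and 2112 against 3716 at 3 weeks. Monocyte markers summed to 14057 in Il10rb-/- and 5736 in Il10rb+/- P3/P4 MΦs at 1 week, with 2 of 8 over 3-fold higher, and to 33892 and 41723 at 3 weeks. The libraries also differed in epithelial markers at each age. Of 9 past the filter, 9 were higher in Il10rb-/- P3/P4 MΦs at 1 week (sums 184 in Il10rb+/- and 981 in Il10rb-/-) and 1 at 3 weeks (1567 and 755). At 12 weeks 8 of the 9 were higher, 4 of them by over 3-fold, and 1 was over 3-fold lower (999 and 2314). The part of these cells in the values below was not tested, and in a sorted bulk sample fewer cells of a type and less RNA per cell cannot be told apart.

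Levels of different genes were set side by side per kilobase of exon, a scale on which Cd14 came first and Tlr2 second in all 6 libraries. Cd14 lay between 13820 (1 week, Il10rb+/-) and 104900 (12 weeks, Il10rb-/-) normalized counts per kb, and Tlr2 between 1717 and 9581 in the same libraries. Tlr9 was last in every library, with 6.77 to 25.9 normalized counts per kb, and Tlr6 was ninth in every library, with 46.3 to 141. Directly after Cd14 and Tlr2 came Tlr13 in the 4 libraries of 1 and 3 weeks and Myd88 in both libraries of 12 weeks. Tlr4 and Tlr8 were neighbours that hardly differed, with 225.4 and 225.1 normalized counts per kb at 1 week in Il10rb-/- P3/P4 MΦs, and Tlr4 and Tlr7 did so at 12 weeks (172.6 and 172.5). Cd14 exceeded Tlr4 per kb by 48.6, 56.4 and 256-fold in Il10rb+/- and by 92.0, 123 and 608-fold in Il10rb-/- P3/P4 MΦs at 1, 3 and 12 weeks.

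Among the surface receptors, Tlr2 (ENSMUSG00000027995, chromosome 3 from 83836272 to 83841767 of GRCm38) had more normalized counts in Il10rb-/- than in Il10rb+/- P3/P4 MΦs at every age. It had 5174, 6266 and 9169 normalized counts in Il10rb+/- and 9219, 9073 and 28876 in Il10rb-/- P3/P4 MΦs at 1, 3 and 12 weeks. The 12-week Il10rb-/- library held the highest value, over 3-fold above any other, and the 1-week Il10rb-/- library was level with the 12-week Il10rb+/- library. The log2 ratios of Il10rb-/- over Il10rb+/- were 0.83 (95% interval 0.78 to 0.89), 0.53 (0.47 to 0.60) and 1.65 (1.63 to 1.68). These intervals are exact Clopper-Pearson intervals from the reads and cover counting error only, not the spread between mice.

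Tlr6 (ENSMUSG00000051498, chromosome 5 from 64952031 to 64960097), a partner of TLR2 for diacylated lipoproteins, had 350, 197 and 173 normalized counts in Il10rb+/- and 255, 205 and 525 in Il10rb-/- P3/P4 MΦs. Its order therefore turned with age. The Il10rb-/- library was lower at 1 week (log2 ratio -0.46, interval -0.73 to -0.19), at 3 weeks the reads could not tell the libraries apart (0.06, -0.32 to 0.44), and the Il10rb-/- library was 3.04-fold higher at 12 weeks (1.60, 1.43 to 1.79). Tlr1 (ENSMUSG00000044827, chromosome 5 from 64924679 to 64933563), the partner for triacylated lipoproteins, had 1173, 445 and 638 normalized counts in Il10rb+/- and 1305, 492 and 1033 in Il10rb-/- P3/P4 MΦs. In both genotypes it was highest at 1 week and lowest at 3 weeks, and its log2 ratio between genotypes was 0.15 (0.03 to 0.28), 0.15 (-0.10 to 0.39) and 0.69 (0.59 to 0.80). Tlr1 and Tlr6 are neighbours, 18.5 kb apart on the same strand, and share 340 stretches of 75 bases, the length of a read, so that reads from those stretches could not be assigned to one of them. Stretches shared with any other gene make up 10.6% of those of Tlr1 and 9.25% of those of Tlr6.

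Tlr4 (ENSMUSG00000039005, chromosome 4 from 66827584 to 66930284) was the only surface receptor of the 4 that was lower in Il10rb-/- P3/P4 MΦs at all 3 ages. It had 1580, 1789 and 1107 normalized counts in Il10rb+/- and 1252, 1193 and 959 in Il10rb-/- P3/P4 MΦs. The values of the genotypes overlapped across ages, and the differences were small, with log2 ratios of -0.34 (-0.46 to -0.21), -0.58 (-0.72 to -0.45) and -0.21 (-0.30 to -0.11).

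Cd14 (ENSMUSG00000051439, chromosome 18 from 36725067 to 36726798) was one of the most abundant transcripts of these cells, above 99.8% of the genes tested by its mean level. It had 23943, 31422 and 88470 normalized counts in Il10rb+/- and 35900, 45597 and 181665 in Il10rb-/- P3/P4 MΦs at 1, 3 and 12 weeks. Both 12-week libraries were above all younger ones, and at each age the Il10rb-/- library was the higher one. The log2 ratios between genotypes were 0.58 (0.56 to 0.61), 0.54 (0.51 to 0.57) and 1.04 (1.03 to 1.05), the last of them 2.05-fold.

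**Figure D1:**
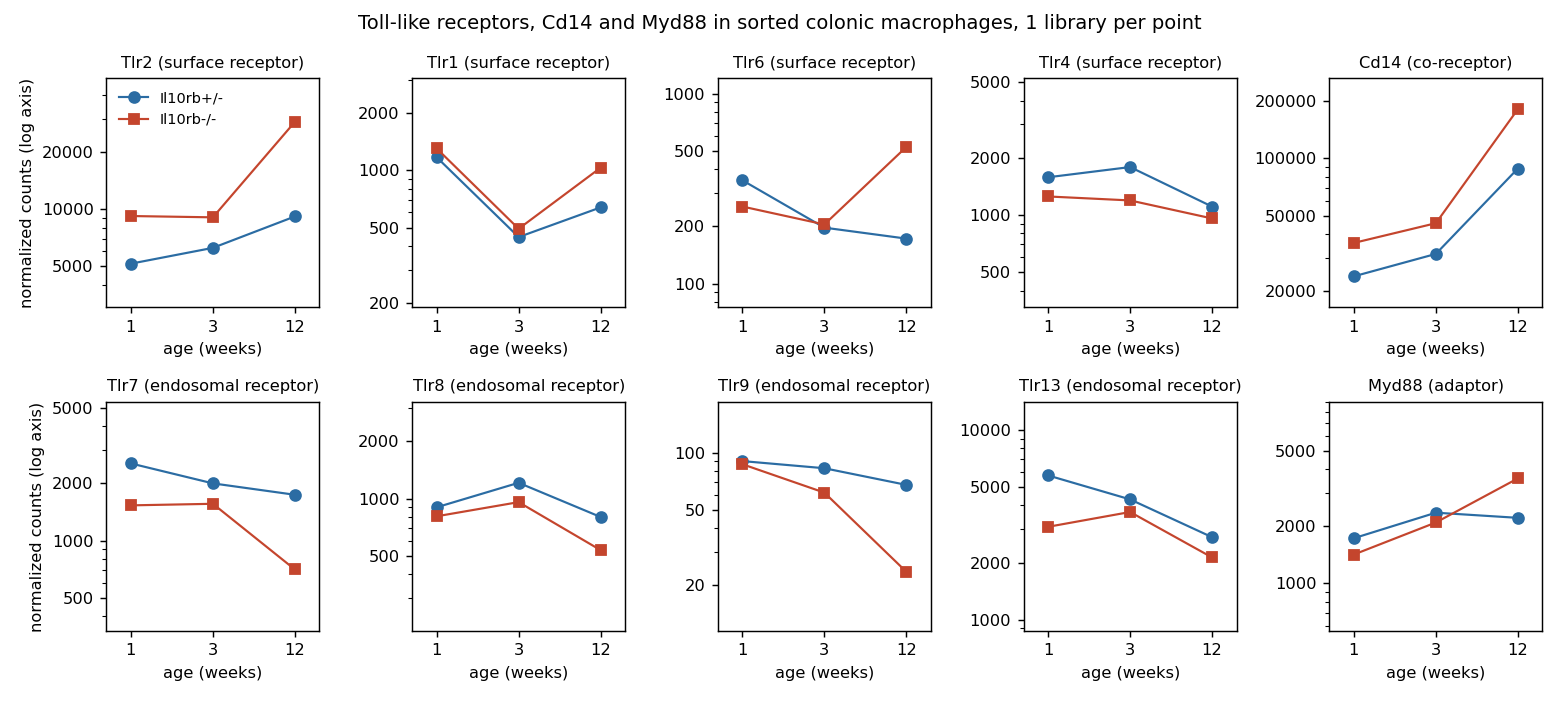
Normalized counts (log axis, each panel spanning the same 16-fold range) against age in weeks for the 10 genes, with 1 point per library, blue circles for Il10rb+/- and red squares for Il10rb-/-; lines join the 3 ages of a genotype. Tlr2 and Cd14 have the red point above the blue one at each age, and Tlr7, Tlr8, Tlr9, Tlr13 and Tlr4 have it below.

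Tlr7, Tlr8, Tlr9 and Tlr13, the endosomal receptors among the members, had fewer normalized counts in Il10rb-/- than in Il10rb+/- P3/P4 MΦs at each age. For Tlr9 the counting intervals at 1 and 3 weeks held 0. Tlr7, Tlr8 and Tlr13 lie on chromosome X, and whether the sex of the mice differed between libraries was not tested. Tlr7 (ENSMUSG00000044583, chromosome X from 167304929 to 167330558), a sensor of single-stranded RNA, had 2547, 2000 and 1742 normalized counts in Il10rb+/- and 1532, 1562 and 704 in Il10rb-/- P3/P4 MΦs. Its 3 Il10rb-/- values all lay below its 3 Il10rb+/- values, which held for 1 of the 10 members, against 5.64% of all genes tested whose genotypes did not overlap in either direction. The log2 ratios of Tlr7 were -0.73 (-0.84 to -0.63), -0.36 (-0.48 to -0.24) and -1.31 (-1.41 to -1.21), so that it was 2.47-fold lower at 12 weeks.

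Tlr13 (ENSMUSG00000033777, chromosome X from 106143204 to 106160493) was the most abundant endosomal receptor per kb in every library. It had 5753, 4302 and 2720 normalized counts in Il10rb+/- and 3087, 3693 and 2128 in Il10rb-/- P3/P4 MΦs, and log2 ratios of -0.90 (-0.97 to -0.82), -0.22 (-0.30 to -0.14) and -0.35 (-0.42 to -0.29). Its difference was thus largest at 1 week, unlike those of Tlr7 and Tlr9. Tlr8 (ENSMUSG00000040522, chromosome X from 167242696 to 167264329), which lies 40.6 kb from Tlr7 and shares no read-length stretch with it, had 900, 1212 and 800 normalized counts in Il10rb+/- and 807, 958 and 536 in Il10rb-/- P3/P4 MΦs. The upper bound of its interval at 1 week touched 0 (log2 ratio -0.16, -0.31 to -0.00), and at 3 and 12 weeks the ratios were -0.34 (-0.49 to -0.18) and -0.58 (-0.70 to -0.46).

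Tlr9 (ENSMUSG00000045322, chromosome 9 from 106222598 to 106226883) was the receptor with the fewest reads, down to 34 in 1 library. It had 90.2, 82.7 and 67.6 normalized counts in Il10rb+/- and 86.9, 61.6 and 23.6 in Il10rb-/- P3/P4 MΦs. With so few reads, no difference was detectable at 1 week (log2 ratio -0.06, -0.56 to 0.44) or 3 weeks (-0.43, -1.04 to 0.21). At 12 weeks Tlr9 was 2.87-fold lower in Il10rb-/- P3/P4 MΦs (log2 ratio -1.52, -2.08 to -0.99).

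Myd88 (ENSMUSG00000032508, chromosome 9 from 119335934 to 119341411) had 1730, 2358 and 2215 normalized counts in Il10rb+/- and 1420, 2094 and 3573 in Il10rb-/- P3/P4 MΦs. The Il10rb-/- value was the lower one at 1 and 3 weeks and the higher one at 12 weeks, with log2 ratios of -0.29 (-0.40 to -0.17), -0.17 (-0.28 to -0.06) and 0.69 (0.63 to 0.75). Myd88 overlaps Acaa1a on the opposite strand over 290 exonic bases, 11.3% of its exonic length, and the strand setting of the counting is not given in the sources used here. Acaa1a had log2 ratios of 0.17, 0.08 and 0.93 at the 3 ages, and whether its reads entered those of Myd88 was not tested.

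Read against the study's limit of 3-fold, the members passed it between genotypes only at 12 weeks. At 1 week 0 of 10 members passed the limit in either direction, where 2.75% of all genes tested were higher and 0.75% lower by that much. At 3 weeks it was again 0 of 10, with 1.34% of genes higher and 0.642% lower. At 12 weeks 2 of 10 members, Tlr2 (3.15-fold) and Tlr6 (3.04-fold), were over the limit upwards, where 4.03% of all genes were, and 0 of 10 downwards, where 9.99% were. Tlr9 was just inside the limit. The median log2 ratio of the 10 members was -0.22, -0.20 and 0.24 at 1, 3 and 12 weeks, beside -0.04, 0.02 and 0.04 for all genes, with 3, 4 and 5 members higher in Il10rb-/- P3/P4 MΦs. Scaling by total reads moved the median of all genes at 12 weeks by -0.22 on the log2 scale. Tlr2 and Tlr6 were then under 3-fold and Tlr9 was over it, but no member changed direction between genotypes at any age under that scaling or TMM.

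**Figure D2:**
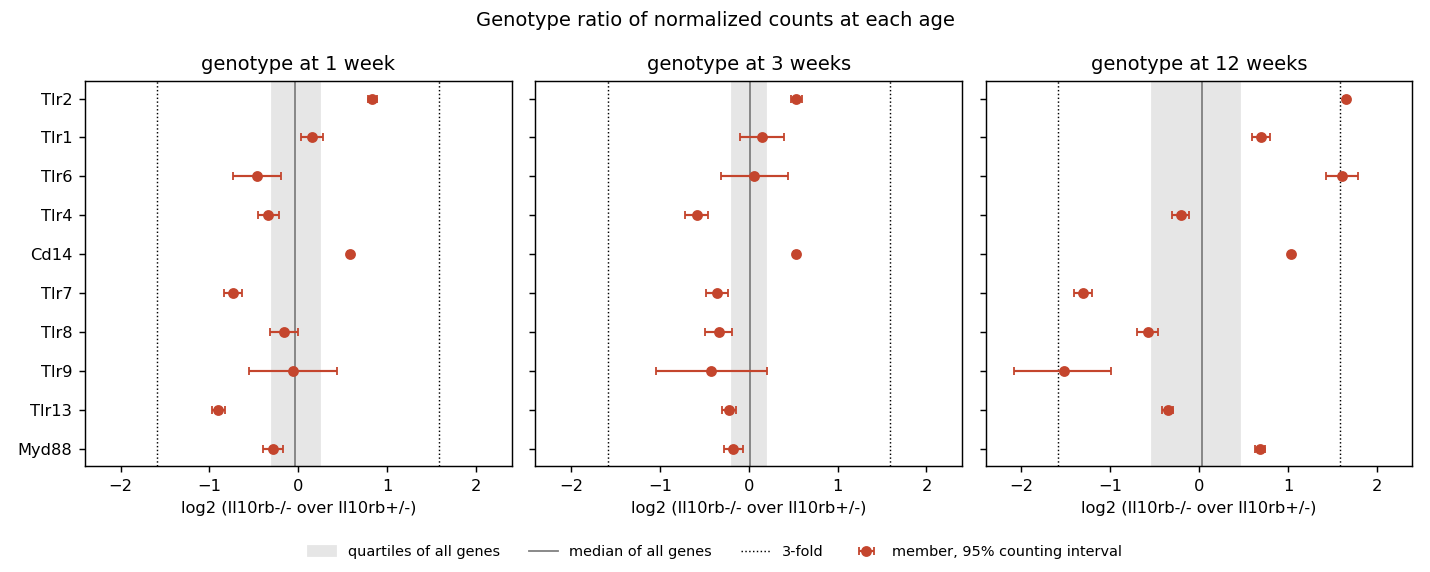
Log2 ratio of Il10rb-/- over Il10rb+/- normalized counts for each of the 10 genes at 1, 3 and 12 weeks, with 95% counting intervals; the grey band runs from the lower to the upper quartile of the 11067 genes tested, the grey line their median, and dotted lines mark 3-fold. At 12 weeks Tlr2 and Tlr6 lie past the upper dotted line, and Tlr7 and Tlr9 lie on the other side of 0, at -1.31 and -1.52.

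The only comparison of genotypes with replication takes age as a term and sets 3 Il10rb-/- against 3 Il10rb+/- libraries, in limma on log2 of the value plus 1, so its error is how far the genotype difference varied between ages. No member and 0% of the genes passed an adjusted p of 0.05, and 853 of 11067 genes, 4 members among them, had an unadjusted p under 0.05. Those 4 were Tlr2 (log2 difference 1.007, SE 0.26), Tlr7 (-0.80, SE 0.22), Cd14 (0.72, SE 0.24) and Tlr13 (-0.49, SE 0.19), and each had a limma adjusted p of 0.63. Each kept its sign at 3 of 3 ages, as did Tlr4 (-0.38), Tlr8 (-0.36), Tlr9 (-0.65) and Tlr1 (0.33). Tlr6 (0.40, SE 0.41) and Myd88 (0.08, SE 0.23) did not. The counting intervals held 0 for Tlr9 at 1 and 3 weeks and for Tlr1 at 3 weeks, so the reads do not settle their signs there. The share of all genes that kept their sign was not determined, so the signs only describe the members. Il10rb itself had the lowest adjusted p of all genes, 0.0616 by limma.

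The balance between the classes of the 8 member receptors can be read within a library, where the scaling between libraries plays no part. Tlr3, Tlr5, Tlr11 and Tlr12 were left out of these shares, and shares with them were not determined. The 4 surface receptors took 47.1% (exact 95% interval 46.4 to 47.9) of the reads on the 8 receptors in Il10rb+/- and 68.6% (67.7 to 69.4) in Il10rb-/- P3/P4 MΦs at 1 week. At 3 weeks they took 53.4% (52.2 to 54.6) and 63.6% (62.9 to 64.3), and at 12 weeks 67.5% (67.0 to 68.0) and 90.2% (90.0 to 90.5). The share was higher in Il10rb-/- P3/P4 MΦs at 3 of 3 ages, and was also higher at 12 weeks than at 1 and 3 weeks within each genotype. Tlr2 made up most of it in every library, and the other surface receptors did not rise together. At 3 weeks Tlr4 took 10.98% in Il10rb+/- and 6.92% in Il10rb-/- P3/P4 MΦs, Tlr6 1.21% and 1.19%, and Tlr1 2.73% and 2.86%. Tlr2 is therefore the largest part of the surface share, and a share without Tlr2 was not determined. From Il10rb+/- to Il10rb-/- the endosomal share fell proportionally less than Tlr4 at 3 weeks (46.6%, 36.4%). At 1 week it fell from 52.9% to 31.4%, proportionally more than Tlr4 (8.997%, 7.14%) and Tlr6 (1.99%, 1.45%). Tlr1 rose (6.68%, 7.44%). At 12 weeks the endosomal share fell from 32.5% to 9.75%, proportionally more than Tlr4 (6.74%, 2.76%) and Tlr1 (3.89%, 2.97%). Tlr6 rose (1.05%, 1.51%). The order at 1 and 12 weeks thus did not rest on Tlr2 alone. Tlr2 alone took 29.4%, 38.5% and 55.9% of receptor reads in Il10rb+/- and 52.5%, 52.6% and 83.0% in Il10rb-/- P3/P4 MΦs. Tlr13 took 32.8%, 26.4% and 16.6% in Il10rb+/- and 17.6%, 21.4% and 6.12% in Il10rb-/- P3/P4 MΦs, and Tlr7 went from 14.5%, 12.3% and 10.6% in Il10rb+/- to 8.73%, 9.06% and 2.02% in Il10rb-/- P3/P4 MΦs. At 1 week in Il10rb+/- P3/P4 MΦs, Tlr13 and not Tlr2 therefore had the most receptor reads. Shares of a common total are tied, so a larger Tlr2 share lowers the others. At 12 weeks the share of Tlr13 went from 16.6% to 6.12%, while its normalized counts were 1.28-fold lower in Il10rb-/- P3/P4 MΦs. Per kb of exon, an alternative chosen after the data were seen, the surface share was 52.2%, 58.3% and 72.8% in Il10rb+/- and 73.6%, 69.2% and 92.5% in Il10rb-/- P3/P4 MΦs, in the same order between genotypes.

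**Figure D3:**
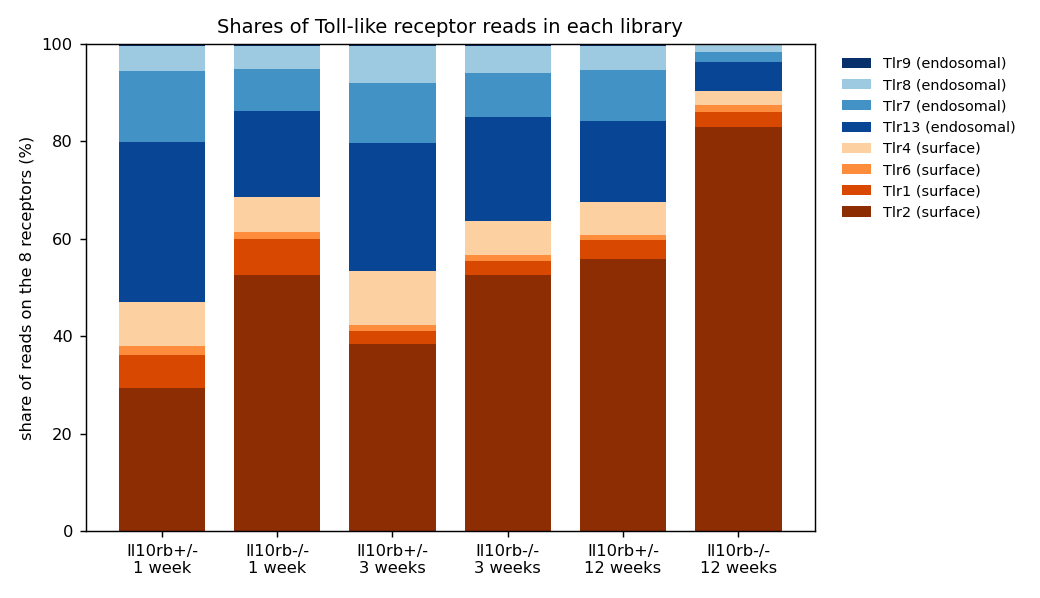
Share (%) of the reads on the 8 Toll-like receptors among the members that fell on each of them, with 1 bar per library. Orange and brown are surface receptors, blue are endosomal receptors. The brown Tlr2 block is taller in Il10rb-/- than in Il10rb+/- at each age and takes 83.0% in the 12-week Il10rb-/- library.

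Age was compared over both genotypes in the same limma fit, with 2 libraries per age, so that its error is how far the age difference varied between genotypes. Between 12 weeks and 1 week Cd14 rose by 2.11 on the log2 scale (SE 0.29, limma adjusted p = 0.0247, with a range of 0.0183 to 0.0436 over 5 other settings), and it was higher at 12 weeks in both genotypes. Marker sums moved with age as well. In Il10rb+/- P3/P4 MΦs the monocyte sums were 5736, 41723 and 28701 at 1, 3 and 12 weeks. Over both genotypes, 3 of 8 monocyte markers were called higher at 12 weeks than at 1 week. The sums were 2281, 1321 and 10960 for conventional dendritic cells and 2323, 1100 and 17670 for B and plasma cells. The part of these cells in the age difference was not tested. Cd14 was the only member called, 1 of 10 higher where 5.01% of all genes were called higher and 0 of 10 lower where 2.23% were called lower. Tlr2 differed by 1.24 with a limma adjusted p of 0.072. Scaling by total reads moved the call of all genes from 555 higher and 247 lower to 454 higher and 2022 lower, and under it Tlr1, Tlr4, Tlr7, Tlr8 and Tlr13 were called lower while Cd14 was still called higher, at 1.62. No member was called between 3 weeks and 1 week, where 0.0181% of genes were, or between 12 and 3 weeks, where 0.0271% were. The largest member differences there were that of Tlr1 at 3 weeks against 1 week (-1.40, limma adjusted p = 0.17) and that of Cd14 at 12 against 3 weeks (1.74, limma adjusted p = 0.12).

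Single libraries show the course within a genotype. In Il10rb+/- P3/P4 MΦs Cd14 was 3.70-fold higher at 12 weeks than at 1 week (log2 ratio 1.89, 1.87 to 1.91), the 1 member of 10 over 3-fold higher where 9.69% of genes were, and 0 of 10 were over 3-fold lower where 2.57% were. In the same comparison Tlr13 (-1.08, -1.13 to -1.03), Tlr6 (-1.02, -1.23 to -0.81) and Tlr1 (-0.88, -0.99 to -0.76) were lower and Tlr2 (0.83, 0.78 to 0.87) was higher. No member passed 3-fold from 1 to 3 weeks, where 6.56% of genes did in either direction, or from 3 to 12 weeks, where 6.36% did.

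In Il10rb-/- P3/P4 MΦs the widest step between 1 and 3 weeks was that of Tlr1 (log2 ratio -1.41, -1.56 to -1.25), followed by Myd88 (0.56, 0.45 to 0.67). Cd14 (0.35, 0.32 to 0.37) and Tlr13 (0.26, 0.18 to 0.34) were also higher at 3 weeks. None was over 3-fold, where 5.02% of genes were in either direction, although Tlr1 passed it under scaling by total reads (-1.59). From 3 to 12 weeks Tlr2 (3.18-fold) and Cd14 (3.98-fold) were over 3-fold higher, where 5.75% of genes were, and 0 of 10 were over 3-fold lower, where 8.45% were. Over the whole span from 1 to 12 weeks Tlr2 (3.13-fold) and Cd14 (5.06-fold) were again over 3-fold higher, where 9.55% of genes were, and Tlr9 was 3.69-fold lower, where 9.18% were over 3-fold lower. With a pseudocount of 10 this ratio of Tlr9 fell short of 3-fold (-1.53). Tlr7 was lower (log2 ratio -1.12, -1.245 to -0.997) and Myd88 higher (1.33, 1.23 to 1.43) in that comparison. Scaling by total reads moved the median of all genes by -0.60 in this comparison and by -0.38 in that of Il10rb+/- P3/P4 MΦs at 12 weeks against 1 week. The share of higher genes among those over 3-fold then went from 51.0% to 27.2% in Il10rb-/- and from 79.1% to 60.3% in Il10rb+/- P3/P4 MΦs, and Tlr2 in the first and Cd14 in the second were no longer over 3-fold, while Tlr7 passed it in the first (-1.72). For 12 against 3 weeks it went from 40.5% to 23.9% in Il10rb-/-, where Tlr2 and Cd14 fell short of 3-fold and Tlr9 passed it, and from 85.1% to 75% in Il10rb+/- P3/P4 MΦs.

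Other genes of the pathway were taken in 5 lists, to be read against the 46.0%, 52.1% and 52.0% of all genes tested that were higher in Il10rb-/- P3/P4 MΦs at 1, 3 and 12 weeks. Of the 4 remaining Toll-like receptors, Tlr3, Tlr5 and Tlr11 stayed under 3-fold between genotypes at every age, and Tlr12, an endosomal receptor for profilin, did not. Tlr12 had 4593, 2166 and 1929 normalized counts in Il10rb+/- and 2173, 2455 and 327 in Il10rb-/- P3/P4 MΦs. It was 5.90-fold lower in the 12-week Il10rb-/- library (log2 ratio -2.56, -2.70 to -2.43), but slightly higher at 3 weeks (0.18, 0.07 to 0.29). Tlr11, also endosomal, was higher in Il10rb-/- P3/P4 MΦs at 3 weeks (1.21, 0.53 to 1.94) and 12 weeks (0.77, 0.48 to 1.06), and Tlr3, a sensor of double-stranded RNA, was lower at 12 weeks (-1.01, -1.38 to -0.65). Of 13 accessory proteins past the filter, 4 were higher and 1 was over 3-fold lower at 12 weeks (median log2 ratio -0.23). The 1 was Cd36, a scavenger receptor that assists TLR2 with TLR6, at -3.91 (-4.03 to -3.81). Unc93b1, which carries endosomal receptors out of the endoplasmic reticulum, hardly differed, with log2 ratios of -0.07, 0.10 and 0.07 at the 3 ages, and Ly96, which encodes MD-2, had 0.30, -0.18 and -1.34.

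Of 22 signalling genes past the filter, 15 were higher in Il10rb-/- P3/P4 MΦs at 12 weeks (median log2 ratio 0.62), beside 4 at 1 week and 17 at 3 weeks. At 12 weeks Irf7, a transcription factor for type I interferon genes, was 3.86-fold higher (log2 ratio 1.95, 1.86 to 2.04). Irak4, the kinase that docks on MyD88, was 3.59-fold lower at 1 week (-1.84, -2.12 to -1.58) and higher by a log2 ratio of 1.15 and 1.04 at 3 and 12 weeks. Of 15 inhibitors, 8 were higher at 12 weeks with a median of 0.07. Irak3, which blocks release of IRAK kinases, was 3.15-fold higher at 12 weeks (1.65, 1.57 to 1.74), and Il1rl1, which encodes the IL33 receptor ST2, had 98 and 14 reads at 1 week (-2.21, -3.14 to -1.40) and 187 and 1 at 12 weeks (-7.12, -12.43 to -4.62) in Il10rb+/- and Il10rb-/- P3/P4 MΦs.

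The 5 lists were chosen with earlier results of these data known, and the paper names Il12b and Nos2 among the genes higher in Il10rb-/- P3/P4 MΦs. Counts from the lists beside those of all genes are therefore a description and not a test. Of 16 genes that Toll-like receptor ligands induce in MΦs, 6 were higher and 2 lower by over 3-fold at 12 weeks in Il10rb-/- P3/P4 MΦs, beside 4.03% and 9.99% of all genes. The 6 were Nos2 (log2 ratio 8.48), Acod1, which makes itaconate (5.18), the acute-phase gene Saa3 (4.83), Ptgs2, the inducible cyclooxygenase (2.76), Il6 (2.57) and Il1b (1.80). The 2 were Il10 (-2.17) and the scavenger receptor Marco, which had 118 reads in Il10rb+/- and 0 in Il10rb-/- P3/P4 MΦs and was at least 29.2-fold lower against a floor of 3 reads. At 3 weeks 4 of the 16 were over 3-fold higher, beside 1.34% of all genes, namely Il12b (3.46), Acod1 (3.35), Nos2 (2.48) and Marco (2.32). At 1 week it was 0 of 16, with Nos2 at 2 and 3 reads, and 11 of the 16 had the higher value in the Il10rb-/- library (median log2 ratio 0.23). At 3 and 12 weeks 8 and 9 of the 16 had the higher value there (median log2 ratios 0.18 and 0.62). Of all genes 52.1% and 52.0% were higher at those ages. No gene of the 5 lists was called between genotypes over ages by limma. Between 12 weeks and 1 week, 11 of the 70 list genes past the filter were called higher and 0 lower, beside 5.01% and 2.23% of all genes, namely the 5 inhibitors Tnip1, Zc3h12a, Lilrb4a, Irak3 and Nfkbia, the 4 induced genes Il1b, Il6, Saa3 and Acod1, the kinase Ikbke and the flagellin receptor Tlr5, which were named after their values were seen.

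**Figure D4:**
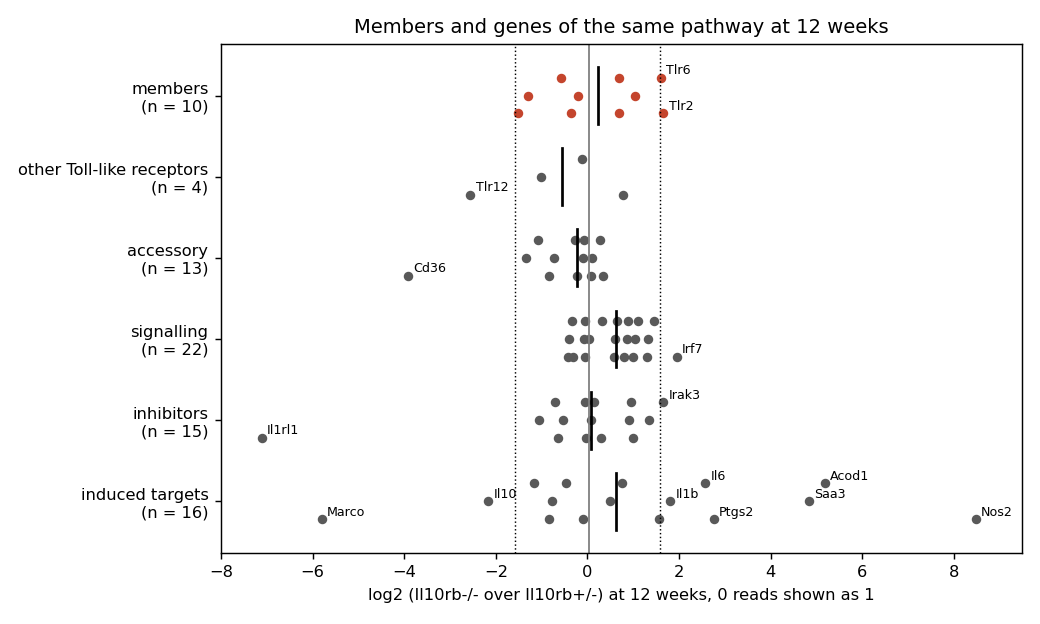
Log2 ratio of Il10rb-/- over Il10rb+/- normalized counts at 12 weeks for the 10 members (red) and the genes of 5 pathway lists past the filter (grey), 1 point per gene with small vertical offsets for legibility; black ticks are list medians, the grey line is the median of all genes, dotted lines mark 3-fold and genes past them are named. Induced targets spread widest, from Marco at -5.80 with 0 reads shown as 1 to Nos2 at 8.48, and the members lie between -1.52 and 1.65.

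The pattern of each member over the 6 libraries was compared with that of all other genes past the filter, by Pearson's r of log2 of the value plus 1, given as a description since the libraries share depth, scaling and cell makeup. The nearest gene was Nfkb2 for Cd14 and Rrbp1 for Tlr2, each with r = 0.997 over 6 libraries. Nfkb2 encodes the p100 subunit of NF-kappaB and had 1596, 1733 and 3749 normalized counts in Il10rb+/- and 1941, 2393 and 6481 in Il10rb-/- P3/P4 MΦs. For Cd14, Hnrnpc (0.9966) and Adrm1 (0.9963) lay practically level with Nfkb2 (0.9973), and a link of Cd14 with Nfkb2 was not tested. For the other members the nearest gene was Fubp1 (Tlr1, 0.986), Wdr45b (Tlr6, 0.997), Decr2 (Tlr4, 0.987), Tmem241 (Tlr7, 0.996), Prpf40b (Tlr8, 0.996), Aldh7a1 (Tlr9, 0.997), Txlna (Tlr13, 0.997) and Cd38 (Myd88, 0.997). Among the members themselves, Tlr2 ran with Cd14 (r = 0.917, 6 libraries) and against Tlr7 (-0.992) and Tlr9 (-0.951), and Tlr1 ran with neither Tlr2 (0.22) nor Cd14 (0.05).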

How the data were processed

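RNA of FACS-sorted colonic P3/P4 MΦs was sequenced as single-end reads in 6 libraries. Per the labels and the methods, the authors trimmed reads with Trim Galore, aligned them to mm10 with TopHat and counted them on genes with HTSeq (versions, annotation and strand setting are not given in the sources used here). The deposited values are a normalized signal, for which the authors scaled the counts of every library with size factors from DESeq, and a count of 0 appears as 1. Values up to 1000 reads were whole multiples of 1 step per library within 0.01 reads, so reads could be read back. One read was worth 0.473 to 2.43 normalized counts.

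Because these are normalized values, no count model was used. Genes with at least 50 normalized counts in 1 or more libraries were kept. Tests of genotype and age used limma 3.58.1 under R 4.3.3, with log2 of each value after adding a pseudocount of 1, Benjamini-Hochberg adjustment and a trend of variance on mean. The genotype test was also run on simulated data with no age effect and the same genotype difference at every age. That check therefore does not cover genotype differences that vary between ages, as they do here. Libraries of 1 genotype differ in age, so p-values measure only the spread between these libraries. Ratios at a single age have exact Clopper-Pearson 95% intervals (scipy 1.17.1). Intervals and floors (3 reads) cover counting error only. Coordinates and exonic lengths are from GENCODE M21 of GRCm38, where 14085 of 14097 gene IDs were found. Acod1 was matched by its ID to the older name Irg1. The members, lists and motifs were chosen with earlier results of these data known, and the rule for naming pathway genes was over 3-fold between genotypes at any age. Unc93b1, Ly96, the remaining receptors and genes called by age were named after their values were seen.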

Additional observations from a re-analysis of the deposited data

Results flagged for a closer look

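For several genes the genotype ratio pointed one way at 1 age and the other way at another, which was not tested because each age has 1 library per genotype. Among the members, the log2 ratio of Tlr6 was 1.60 at 12 weeks and -0.46 at 1 week, 2.06 apart, and that of Myd88 was 0.69 and -0.29, 0.97 apart. For Tlr12 the ratio was 0.18 at 3 weeks and -2.56 at 12 weeks, a gap of 2.74, and for Cd36 it was 0.10 at 1 week and -3.91 at 12 weeks, a gap of 4.02. Irak4 had 1.15 at 3 weeks and -1.84 at 1 week, which is 2.99 apart, and Irf7 had 1.95 at 12 weeks and -0.59 at 1 week, which is 2.54 apart. Saa3 had 4.83 at 12 weeks and -1.23 at 3 weeks, 6.06 apart. The gap of Marco, 2.32 at 3 weeks against -5.80 at 12 weeks, was 8.12 with 0 reads shown as 1, and its 12-week Il10rb-/- library held 0 reads.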

How the results depend on the processing

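The planned edgeR and DESeq2 alternatives were not run. This was by choice, as the deposited values are normalized, and not because reads could not be had from them. The age term holds each pair of libraries of 1 age together. No paired analysis was possible beyond that because the libraries carry no replicate numbers shared between mice. For the genotype difference over ages, the 0 genes called became 1 with a pseudocount of 10 and 1 without the age term. Leaving out both libraries of 1 age gave 3 to 61 calls, with 20 without 1 week, 3 without 3 weeks and 61 without 12 weeks. No member was called under any of these settings, with a lowest limma adjusted p of 0.18 (Tlr2) over these settings. For 3 weeks against 1 week, 2 calls became 8 with a pseudocount of 10, and for 12 against 3 weeks 3 calls became 8 with it and 0 under scaling by total reads, where 3012 genes had an unadjusted limma p under 0.05. For 12 weeks against 1 week, 802 calls became 2476 under scaling by total reads. Counts over 3-fold without the filter went from 387 to 1124, 219 to 895 and 1552 to 2947 between genotypes at 1, 3 and 12 weeks. In Il10rb+/- P3/P4 MΦs they went from 726 to 1657 (3 over 1 weeks), 704 to 1964 (12 over 3) and 1356 to 2755 (12 over 1), and in Il10rb-/- P3/P4 MΦs from 556 to 1413, 1571 to 2753 and 2073 to 3349. A pseudocount of 10 lowered them to 125 and 85 between genotypes at 1 and 3 weeks, and to 440 and 313 for 3 over 1 weeks in Il10rb+/- and Il10rb-/- P3/P4 MΦs. With that pseudocount Tlr6 between genotypes at 12 weeks and Tlr9 (12 over 1 weeks, Il10rb-/-) fell short of 3-fold. Directions over ages turned for Tlr6 without 12 weeks (-0.20) and for Myd88 without 12 weeks (-0.23) and under scaling by total reads (-0.011), and without 1 week they were 0.83 and 0.26. Under that scaling they also turned for Tlr2 (-0.033) and Tlr4 (-0.11) at 3 weeks against 1 week and for Tlr6 at 12 weeks against 1 week (-0.48, and -0.0027 under TMM). Single-age ratios of Myd88 (12 over 1 weeks, Il10rb+/-) and Tlr7 (3 over 1 weeks, Il10rb-/-) also turned under it. The cause of these turns was not tested. Depth limits Tlr9, with 34 to 143 reads, and Tlr6.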
